A study of Rattus norvegicus with 2 samples.

Results

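Heat shock proteins are the molecular chaperones that keep other proteins folded. The genes described here are 10 rat members of that family: the small heat shock proteins Hspb1, Hspb6, Hspb8 and Cryab, the cytosolic chaperones Hspa8, Hsp90ab1, Hsph1 and Dnajb4, and the mitochondrial chaperonins Hspd1 and Hspe1. A member was taken by its gene symbol, from every probe set that the array's annotation assigned to that gene alone. This gave 11 probe sets for 9 of the 10 genes, out of 10411 genes on the array. The single probe set that lists Hspa8 lists another gene as well, so Hspa8 has no value here. Of the 9 genes, 8 reached the brightness at which a gene was counted as measured, a mean intensity of at least 507, the middle of all probe sets. Hspb8 lay just below it.

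The cells were A7r5, an established line of smooth muscle cells derived from embryonic rat aorta. Cultures of both groups were infected with adenovirus for 72 hours at a multiplicity of 10 (100 particles per cell for each unit) and held in 5.5 mM glucose. The GLUT1 group received a virus with the human cDNA of that glucose transporter and the control group an empty virus, so infection itself is common to both. RNA from 3 isolation days was pooled into 1 sample per group and read on 1 array each. The study asked how more glucose transport alters vascular smooth muscle cells.

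Small heat shock proteins bind unfolding proteins without using ATP and hold them in large, changing assemblies. In muscle several of them also attend the contractile filaments and the intermediate filament desmin. The larger chaperones use ATP: Hsp70 proteins, directed by J proteins and recharged by nucleotide exchange factors, pass clients on to Hsp90, and in mitochondria the Hsp60 barrel with its Hsp10 lid encloses proteins while they fold. Heat and other protein damage raise many of these genes through heat shock factor HSF1, which binds repeats of a short element in their promoters.

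With 1 array per group, no difference has a replicate check and no p-value is given. A gene's difference is the log2 ratio of its intensity, GLUT1 over control, read from its brightest probe set. Differences past 2-fold and, as a smaller size, past 1.2-fold (0.26 on the log2 scale) were counted. Over the 6114 measured genes the log2 ratio had a median of 0.0063 and an SD of 0.14, and 90% of the genes lay between -0.21 and 0.23. Inside the arrays, 702 genes had at least 2 measured probe sets, and the disagreement between their brightest 2 gave an SD of 0.13 for a single log2 ratio. The rat probe set of Slc2a1, the gene of GLUT1, had intensities of 2902 without and 3121 with the GLUT1 virus. Whether it detects the human cDNA is not stated in the sources used here, so it checks nothing about the labels. In pooled RNA of whole cultures, fewer cells with a transcript and less of it per cell cannot be told apart.

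None of the 8 measured members differed by 2-fold between the pools, and 0.0164% of all measured genes did. Past 1.2-fold lay 1 member, Hspb6, higher in the GLUT1 pool, which is 12.5% of 8 genes beside a background of 6.41% of all measured genes (3.7% higher and 2.72% lower). With so few members, 1 gene decides that share. The other 7 measured members lay within 1.2-fold. Their ratios ran from -0.097 for Hspd1 to 0.099 for Dnajb4.

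**Figure D1:**
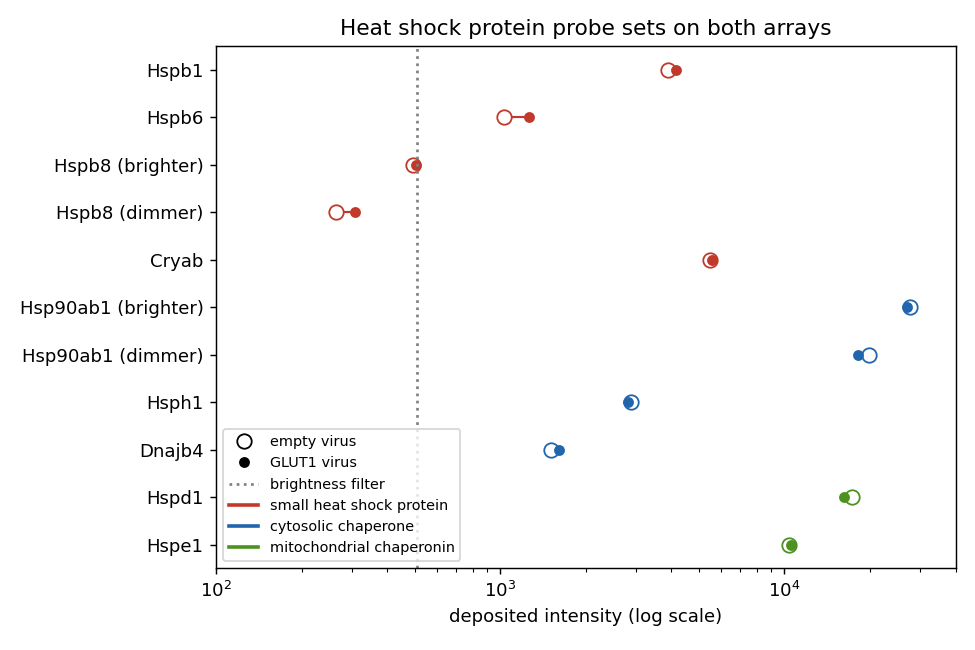
Deposited intensity (horizontal, log scale) of each of the 11 probe sets of the heat shock proteins in the empty-virus pool (open circles) and the GLUT1 pool (filled circles), coloured by class, with the brightness filter as a dotted line. The circles nearly coincide for most genes, Hspb6 has a visible gap from 1034 to 1260, and both probe sets of Hspb8 lie left of the filter.

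The 3 measured small heat shock proteins among the members had ratios above 0, as did 3189 of the 6114 measured genes. Their median log2 ratio was 0.095, while all measured genes had a median of 0.0063. Outside the members, the small heat shock gene Cryaa was measured at 602 and 491 (log2 ratio -0.29). Hspb6 encodes Hsp20, which cyclic-nucleotide-dependent kinases phosphorylate and which is tied to the relaxation of smooth muscle. Its intensity was 1034 with the empty virus and 1260 with the GLUT1 virus, 1.22-fold higher, or 0.29 on the log2 scale. The GLUT1 pool was thus the brighter one by a ratio above those of 95.1% of the 501 measured probe sets nearest in brightness. It lay 1.91 local spreads from the median of these neighbours, where the local spread is their scaled median absolute deviation. It was also 2.13 times the SD of 0.13 from paired probe sets. A single probe set reads Hspb6, so no second one stands beside it.

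Hspb1 encodes Hsp27, a target of stress-activated kinases that acts on actin filaments. Its intensity was 3882 in the control pool and 4144 in the GLUT1 pool, which gives a log2 ratio of 0.095, at 1.06 local spreads. Cryab encodes alphaB-crystallin, a chaperone of desmin that is also a main protein of the eye lens. Its intensities of 5479 and 5580, in the same order, gave a log2 ratio of 0.028, at 0.252 local spreads. The GLUT1 pool was the brighter one for both genes, by less than the SD of 0.13 from paired probe sets. This SD pools genes of every measured brightness, while the local spreads of Hspb1 and Cryab were 0.090 and 0.092.

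Hspb8 encodes Hsp22, which works with the co-chaperone Bag3 to send damaged proteins, including worn parts of the contractile apparatus, to autophagy. The brighter probe set gave 492 in the control and 503 with GLUT1 (log2 ratio 0.033). The dimmer one gave 264 and 309 (log2 ratio 0.23). Both probe sets were higher in the GLUT1 pool, and they differed from each other by 0.20. Because both lie below the brightness filter, Hspb8 enters no median or count here. Its partner Bag3 gave 3458 and 3450 (log2 ratio -0.0021).

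Among the cytosolic chaperones, Hsp90ab1 and Hsph1 were read lower in the GLUT1 pool and Dnajb4 higher, all within 1.2-fold. Hsp90ab1 encodes the constitutive form of Hsp90, which matures kinases and steroid receptors. The brighter probe set gave 27613 in the control and 26940 with GLUT1 (log2 ratio -0.034). The dimmer one gave 19824 and 18142 (log2 ratio -0.13). Both probe sets were lower in the GLUT1 pool, at 0.406 and 1.67 local spreads. The annotation gives both the same source sequence record, so they are not independent. They differ by 0.092, less than the median difference of 0.12 between the paired probe sets of a gene. That median covers genes of every measured brightness, while both Hsp90ab1 probe sets lie where the local spread is lowest, at 0.073.

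Hsph1 encodes Hsp105, a large Hsp70 relative that recharges Hsp70 with ATP. Its intensity was 2893 in the control and 2808 with GLUT1, for a log2 ratio of -0.042 at 0.445 local spreads. Dnajb4 encodes a J protein that brings clients to Hsp70. Its intensity was 1508 in the control and 1614 with GLUT1, for a log2 ratio of 0.099 at 0.814 local spreads. Both stayed within 1 local spread.

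The mitochondrial chaperonins pointed in opposite directions. Hspd1, which encodes the Hsp60 barrel, had 17303 in the control and 16168 with GLUT1 (log2 ratio -0.097). Hspe1, which encodes the Hsp10 lid, had 10389 and 10574 (log2 ratio 0.027). The ratios of the barrel and the lid differed by 0.12, close to the median difference between the paired probe sets of a single gene. That median covers genes of every measured brightness, while these bright genes had local spreads of 0.073 and 0.078. The ratios of Hspd1 and Hspe1 stood at 1.26 and 0.427 local spreads.

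**Figure D2:**
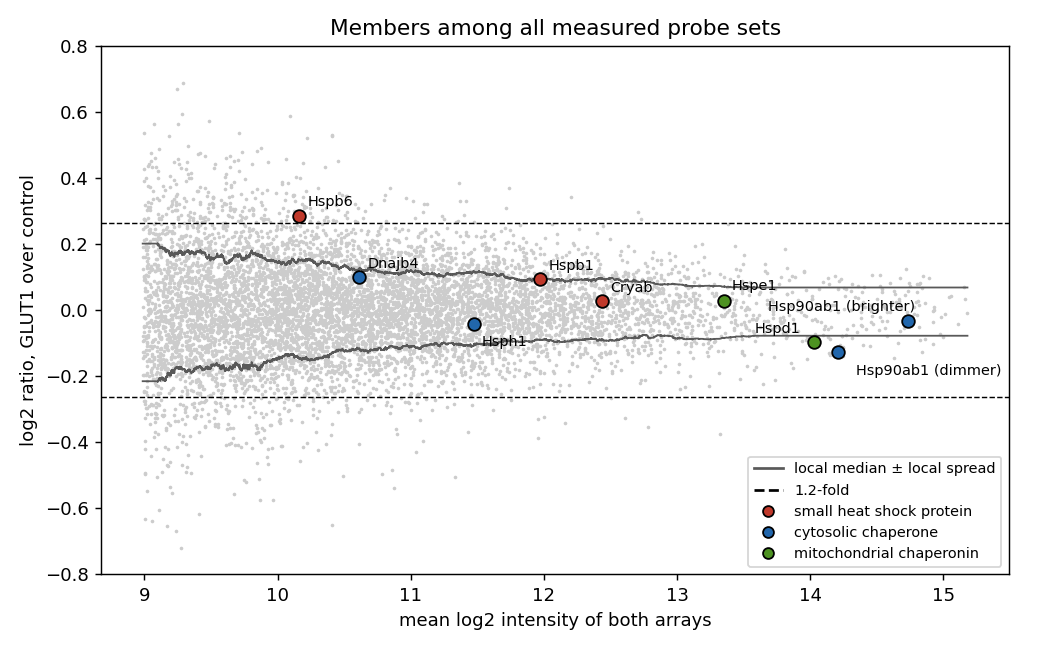
Log2 ratio, GLUT1 over control (vertical), against mean log2 intensity (horizontal) for the 7939 measured probe sets other than manufacturer's controls (grey; 2 lie outside the axis limits of 0.8), with the 9 measured probe sets of the members coloured by class. Dark lines mark the local median plus and minus the local spread and dashed lines 1.2-fold. Hspb6, at 0.29, is the only member beyond the dashed lines. Hspb6 and Hspb1 lie above the upper dark line, and Hspd1 and the dimmer Hsp90ab1 probe set lie below the lower dark line.

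Set side by side, the small heat shock proteins among the members had the higher median. The 5 measured chaperones had a median log2 ratio of -0.034, with 2 genes above and 3 below 0, and the small heat shock proteins a median of 0.095 over 3 genes. The medians differed by 0.13, about the SD of a single ratio from paired probe sets. That SD comes from genes of every measured brightness and does not measure the spread of a difference between medians. The ranges overlapped, from 0.028 to 0.29 for the small proteins and from -0.097 to 0.099 for the chaperones, where Dnajb4 stood above Hspb1 and Cryab. Over the 8 measured members the median was 0.027. No test was made of the difference between the classes, since the genes of a class are not replicates of a condition.

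By intensity, the measured small heat shock proteins among the members spanned 1034 to 5479 in the control and 1260 to 5580 in the GLUT1 pool. The chaperones spanned 1508 to 27613 and 1614 to 26940. The spans overlapped on both arrays. Probe sets bind with different strengths, so these values set no order of mRNA amount between genes. All members with a usable probe set except Hspb8 lay above the brightness filter on both arrays.

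The promoters of the members were searched for heat shock elements. RefSeq promoters (GRCr8) were matched for 8 of the 10 members, all but Cryab and Dnajb4, and the 250 bases before the start of transcription were searched on both strands for GAANNTTC and TTCNNGAA, the inverted pairs of the element that HSF1 binds. Either pair was in 7 of the 8 promoters and in 13.5% of all 33469 rat promoters. Of the 7 matched members that have a usable probe set, 6 held a pair. Hsp90ab1 held none in this window. A match is a run of letters and does not show that the factor binds there.

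The promoters of Hspb6, Hspb1 and Hspb8, the small heat shock proteins that were matched, are shown because they share a letter run, with every pair in capitals. The promoter of Hspb6 (chr1:94934122-94934371, plus strand) holds both forms, 1 of each, and is the only one of the 8 with TATAAA, which 12.9% of all promoters have. The stretches of Hspb1 (chr12:26432383-26432450, minus strand) and Hspb8 (chr12:45837265-45837307, plus strand) end 82 and 1 bases before the start.
Hspb6: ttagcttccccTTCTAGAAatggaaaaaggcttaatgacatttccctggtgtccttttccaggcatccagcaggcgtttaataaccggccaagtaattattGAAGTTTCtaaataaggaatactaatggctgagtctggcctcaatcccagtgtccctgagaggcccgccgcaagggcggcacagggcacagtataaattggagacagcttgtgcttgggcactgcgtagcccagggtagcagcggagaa
Hspb1: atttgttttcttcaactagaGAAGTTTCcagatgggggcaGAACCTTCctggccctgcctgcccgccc
Hspb8: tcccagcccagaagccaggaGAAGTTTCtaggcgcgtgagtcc
The same 8 letters, GAAGTTTC, stand in all 3. They were picked out after the sequences were seen, because these promoters share them, so their presence in 1.22% of all promoters (409 of 33469) is a description only. They begin 149 bases before the start in Hspb6, 129 in Hspb1 and 23 in Hspb8. The 3 genes had log2 ratios of 0.29, 0.095 and 0.033, the last below the brightness filter. That last value is from the brighter probe set of Hspb8, and the dimmer one, also below the filter, gave 0.23. A link between the letters and the ratios was not tested. No CArG box, the element bound by serum response factor in many smooth muscle promoters, was found in the windows of the 8 members, and 1.5% of all promoters held one.

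In some chaperone promoters the pairs overlap into longer runs of at least 3 alternating elements (GAANNTTCNNGAA or its reverse complement TTCNNGAANNTTC). Such a run was in 4 of the 8 promoters, those of Hspa8, Hsph1, Hspd1 and Hspe1 but not that of Hsp90ab1, and in 0.663% of all promoters. Hspd1 and Hspe1 are neighbours that point away from each other, with their first transcribed bases 290 bases apart, and their upstream windows hold the same run. The window is shown in the direction of Hspe1 (chr9:64084077-64084326, plus strand), beside the stretch of Hsph1 (chr12:10427243-10427364, plus strand).
Hspe1: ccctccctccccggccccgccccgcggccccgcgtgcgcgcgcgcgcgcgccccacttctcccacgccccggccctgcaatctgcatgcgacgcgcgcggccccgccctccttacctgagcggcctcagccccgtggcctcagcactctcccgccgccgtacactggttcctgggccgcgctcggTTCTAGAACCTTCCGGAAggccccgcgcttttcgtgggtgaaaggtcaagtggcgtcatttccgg
Hsph1: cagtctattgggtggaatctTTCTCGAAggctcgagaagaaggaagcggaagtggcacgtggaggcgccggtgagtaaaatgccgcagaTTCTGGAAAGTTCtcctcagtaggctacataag
The run lies from 65 to 48 bases before the start of Hspe1, and from 242 to 225 bases before that of Hspd1. The genes that share this stretch had log2 ratios of 0.027 and -0.097, and Hsph1 had -0.042. All 3 measured genes with such a run lay within 1.2-fold, as did 5722 of the 6114 measured genes.

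**Figure D3:**
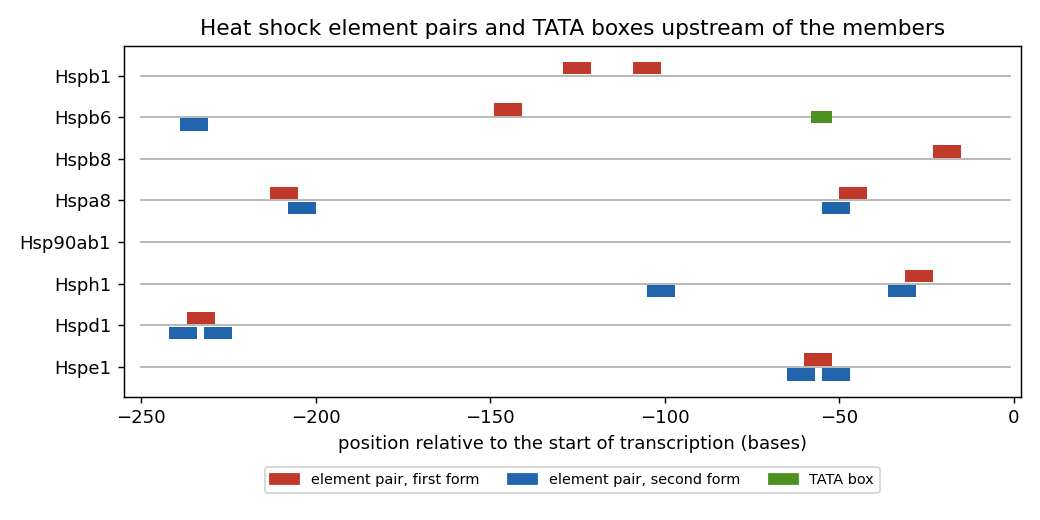
Positions of the inverted element pairs (red, first form, GAANNTTC; blue, second form, TTCNNGAA) and of TATAAA (green) in the 250 bases before the start of transcription (horizontal, bases relative to the start) of the 8 members with a RefSeq promoter. Pairs overlap into longer runs in Hspa8, Hsph1, Hspd1 and Hspe1, stand apart in Hspb1 and Hspb6, and are missing from the Hsp90ab1 window.

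The rest of the chaperone system was taken from lists of 86 further genes, of which 70 had a usable probe set and 54 were measured. Their median log2 ratio was -0.00012, with 27 genes above and 27 below 0. None reached 2-fold. Past 1.2-fold lay 4 of the 54, or 7.41%, beside the background of 6.41%, with 3 higher and 1 lower. This share is near the background.

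The gene farthest from 0 was Fkbp5, an Hsp90 co-chaperone of steroid receptors and a well known target of glucocorticoid and related hormone receptors. Its intensity was 573 in the control and 794 with GLUT1, and the log2 ratio of 0.47 was above 99.3% of its neighbours in brightness. Fkbp5 is dim, with a control value near the brightness filter of 507, and its local spread was 0.18. Trap1, the Hsp90 of mitochondria, gave 1967 and 2457 (log2 ratio 0.32), above 99.7% of such neighbours. Pfdn6, a subunit of prefoldin, which hands new actin and tubulin to the TRiC chaperonin, gave 3023 and 3742 (log2 ratio 0.31), likewise above 99.7%. On the lower side stood Cryaa, the alphaA-crystallin of the lens, at 602 and 491 (log2 ratio -0.29), in the dim range where the local spread reaches 0.21.

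By class, the 12 measured Hsp90 co-chaperones had a median log2 ratio of -0.014, and Sugt1, an adaptor of Hsp90, was lowest at -0.16. The 9 J proteins had a median of -0.036 and ran from -0.16 for Dnajc8 to 0.080 for Dnajc5, whose second measured probe set gave -0.18. The Bag and Hspbp1 exchange factors with St13 and the ubiquitin ligase Stub1, 8 genes, had a median of 0.0089, from -0.070 for Bag1 to 0.19 for Bag6. TRiC and prefoldin, 13 genes, had a median of 0.031, and the TRiC subunit Cct8 was lowest at -0.25. The other mitochondrial chaperones and proteases, 7 genes, had a median of -0.013, with the unfoldase gene Clpx lowest at -0.19. The 3 measured genes of the heat shock factor list, Hsf1, Hsf2 and the binding protein gene Hsbp1, had a median of 0.071.

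Some genes known from the heat shock response are named next, chosen after their values were seen, except Hsf2 and Hsbp1, the highest and lowest of their list, and Hspa13, the single measured gene of its list. Hsf1, the main heat shock factor, gave 1448 in the control and 1520 with GLUT1 (log2 ratio 0.071). Hsf2 had 0.11 and Hsbp1, which encodes a small binding protein of HSF1, 0.022. The J protein gene Dnajb1, a standard marker of the heat shock response, had 2 measured probe sets, at -0.062 and -0.19. Hspa1a, the inducible Hsp70, was below the brightness filter at 500 and 388. Its near-identical copy Hspa1b had no usable probe set, so the value of Hspa1a is uncertain. Hspa9, the Hsp70 of mitochondria that works beside Hspd1 and Hspe1, had a log2 ratio of -0.013, with a second measured probe set at -0.049. Of the 7 genes on the Hsp70 list with a usable probe set, Hspa1a included, only Hspa13 was measured, at 0.045.

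The other small heat shock genes were mostly dim. Of the 5 with a usable probe set 4 lay below the filter, among them Hspb2, the neighbour of Cryab in the genome, at 383 and 381, and Hspb7, at 244 and 229. Hspb3 was read at 41 and 66, under the floor of 175 to which low intensities were raised. Cryaa was the single measured gene of this list.

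**Figure D4:**
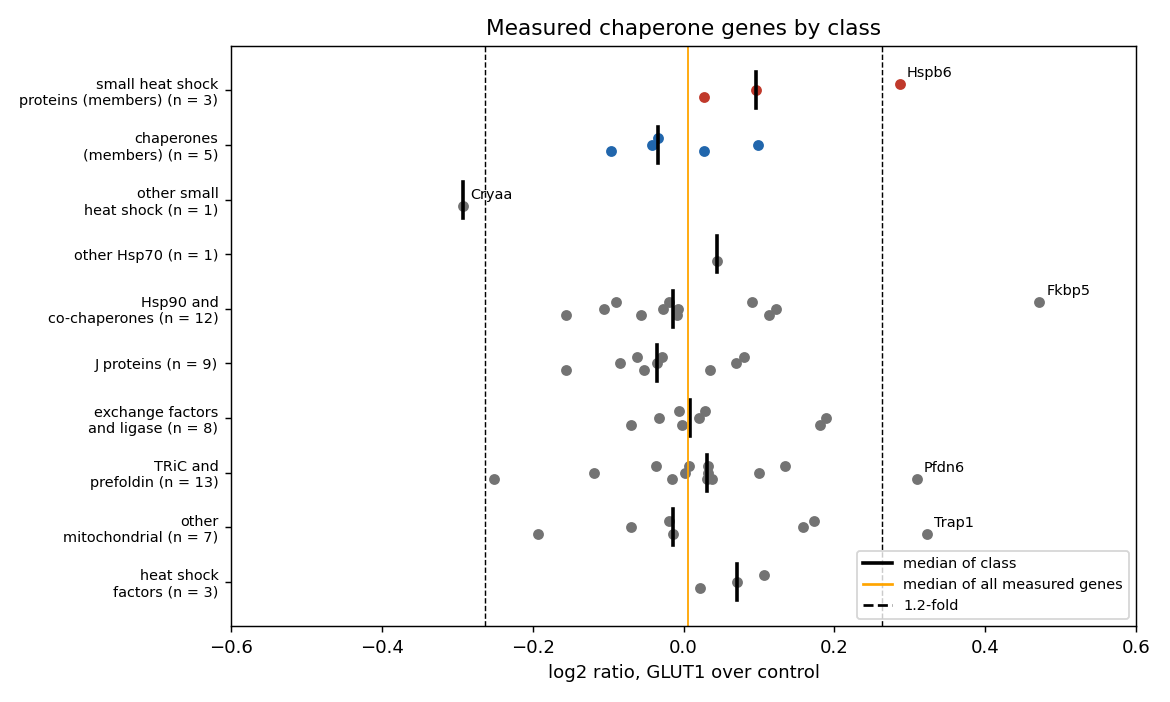
Log2 ratio, GLUT1 over control (horizontal), of each measured gene (points) in the 2 classes of members and 8 classes of other chaperone genes (rows, with the number of genes), with class medians as black bars, the median of all measured genes (0.0063) as an orange line and 1.2-fold as dashed lines. Most points lie near 0, and the named genes beyond the dashed lines are Hspb6, Fkbp5, Pfdn6, Trap1 and Cryaa.

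The cells carried smooth muscle markers. Intensities in the control and GLUT1 pools were 16303 and 16687 for Acta2, 7153 and 7369 for Tagln, and 2942 and 3114 for Cnn1. Myh11, the myosin of differentiated smooth muscle, was dim at 227 and 228. Of 7 smooth muscle genes with a usable probe set 5 were measured, with a median log2 ratio of 0.044 and Smtn highest at 0.19 and Des, the gene of desmin, lowest at -0.026. Their summed intensity over the 7 genes was 29552 in the control pool and 30628 in the other. Of the skeletal and cardiac muscle list only Acta1 was measured, at 2339 and 2240 (log2 ratio -0.061). Endothelial genes were dim, and only Esam was measured, at 584 and 479 (log2 ratio -0.28, 1.33 local spreads). Of the leukocyte genes C1qb was measured at 1352 and 1014 (log2 ratio -0.41) and Cd14 at 1235 and 1398 (0.18). Pecam1 and Ptprc lay under the floor. Of the epithelial and lens list Krt8, at 6193 and 6500 (log2 ratio 0.071), and Cryaa were measured. Krt8 was thus brighter than Cnn1, and Acta1, C1qb and Cd14 were brighter than Des (743 and 729). The part of these markers in the heat shock protein values was not tested.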

How the data were processed

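RNA of 2 pools of A7r5 cells was read on 1 array each. The table as deposited by the authors holds linear intensities of 15923 probe sets, 57 of them manufacturer's controls. The values are whole numbers, and median (508) and quartiles (175 and 1507.5) are the same on both arrays: the deposited intensities were already equalised. Such values cannot show a change in total mRNA. The authors' software and methods of summary, correction and equalising were not given in the sources used here, and 3.01% and 3.04% of values are at or below 0. The number of arrays limits the precision, and pooling hides how far the 3 days differed.

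Names came from the platform annotation, and old symbols were replaced by those of RefSeq's rat table (GRCr8) by gene ID. One gene was listed for 12783 probe sets, several for 312 and none for 2771, and 12748 of the gene IDs were in the table. The GLUT1 array was scaled by 0.0013 log2 units to a median ratio of 0 over brighter probe sets, intensities below the 25th percentile (175) were raised to it, log2 was taken, and the brighter 50% of probe sets (7962) were kept as measured. Promoters came from RefSeq, GRCr8. The steps were tested on simulated data, with Python 3.11.15, numpy 2.4.6 and pandas 2.3.3.

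The members, the other gene lists, the 1.2-fold size and the naming rule were chosen with earlier results of these data known. The rule named all members, the highest and lowest measured gene of each other chaperone list, any past 1.2-fold, and of the markers Acta2, Tagln, Cnn1, Myh11 and any other measured one. Bag3, the second probe set of Dnajc5, Hspb2, Hspb3, Hspb7, Pecam1 and Ptprc were named outside it, after their values were seen. A pattern over 2 arrays is a single ratio, so no gene was named for a similar pattern. Alternatives were the floor, the filter, averaging of probe sets and the scaling.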

Additional observations from a re-analysis of the deposited data

How the results depend on the processing

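No paired analysis was possible because there is 1 array per group, and no array could be left out. Each alternative changed 1 step: the floor to the 10th or 40th percentile, no filter, a filter at the 75th percentile, averaged probe sets, no scaling and quantile normalization. The deposited values were already equalised, so the scaling settings could move little. The measured members lie above every floor tried, and averaging could move only Hsp90ab1, the measured member with 2 probe sets, from -0.034 to -0.081. No member passed 2-fold in any setting. The 75th-percentile filter drops Hspb6 for its brightness: the count of members past 1.2-fold fell from 1 to 0 and that of other chaperone genes lower past 1.2-fold was 0. With no filter, the latter was 3. Over all alternatives the median of the small heat shock proteins among the members ranged from 0.062 to 0.095. That of the chaperones ranged from -0.042 to -0.034, and the difference of both medians from 0.096 to 0.14. The small heat shock proteins were not the same genes in every setting. Their median was 0.062 over 2 genes with the 75th-percentile filter, without Hspb6, and 0.064 over 4 genes with no filter, with Hspb8. Hspb6 ranged from 0.285 to 0.287 wherever it was kept. Depth cannot be given for arrays, and dim genes such as Hspb8 have no detection call behind them.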
